A study of Homo sapiens with 6 samples.

Results

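NES, FABP7, PTPRZ1, CDH2, VIM, PROM1, MSI1, SLC1A3, INSM1 and HOPX are 10 genes used as markers of neural progenitors and radial glia, and they were taken by name from 20033 nuclear protein-coding genes. Their accessible chromatin was read from 3 lists of ATAC-seq peaks, over each gene body, the 3 kb on each side of the transcription start site (TSS) and the 50 kb on each side of the gene. The 10 loci covered 1.73 Mb and held 73 of the 50267 peaks in the 3 lists, which joined into 44 of 32108 separate regions. A region is a set of peaks from the 3 lists that overlap directly or through a peak of another list.

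ATAC-seq, a measure of open DNA by the cuts that the Tn5 transposase makes in it, was performed on 6 samples of human neural progenitor cells (NPCs) derived from H1, a human embryonic stem cell line, with 2 replicates in each of 3 groups. WT NPCs were unmodified, dKO NPCs lacked both UTX (KDM6A) and JMJD3 (KDM6B), histone demethylases that act on the repressive mark H3K27me3, and the dKO + BAF53B NPCs were dKO cells given BAF53B, the form of a BAF chromatin remodeller subunit that neurons use. The knock-out was made by CRISPR/Cas9 in H1 cells from which clones were selected, so dKO and dKO + BAF53B NPCs share the same background, and BAF53B was delivered by lentivirus. The paper used WT and dKO NPCs at passage 2 for ATAC-seq, and the sample titles give no passage for the dKO + BAF53B NPCs. No sample with a control virus was among the 6. Effects of the virus, and of passage if it differed, cannot be told apart from those of BAF53B. Both replicates of each group were pooled into 1 list, so no value has a replicate error, no p-value was computed, and every difference describes pooled libraries without a replicate check.

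Radial glia are the elongated stem cells that line the ventricles of the developing brain and divide to give neurons and, later, glia. Their marker genes serve different parts of that life: intermediate filaments and adhesion molecules that hold the cell in the epithelium, transporters and lipid carriers of the glial type, RNA-binding proteins and transcription factors that set the balance between division and differentiation. Accessible promoters and intronic or distal elements are where transcription factors such as the SOX proteins act on these genes.

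The sequences of 4 regions are shown because the results below turn on them: the NES intron 2 element and the CDH2 element beyond the gene end, which were weak or uncalled in dKO, the FABP7 promoter, and the strongest peak of all 10 loci, in MSI1 intron 6. Each runs 5′ to 3′ on the strand of its gene over 201 bases of hg38, centred on the summit of the strongest peak. Capitals mark letters that match a SOX motif (CCATTGT or CCTTTGT) or the RBPJ motif (GTGGGAA) in NES, the CCAAT box in the FABP7 promoter and the X-box core (GTTGCCAT) bound by RFX factors in MSI1, on either strand. The CDH2 element, so called only for the locus it lies in, held no match to the motifs searched and has no capitals.
NES intron 2, chr1:156673793-156673993, minus strand: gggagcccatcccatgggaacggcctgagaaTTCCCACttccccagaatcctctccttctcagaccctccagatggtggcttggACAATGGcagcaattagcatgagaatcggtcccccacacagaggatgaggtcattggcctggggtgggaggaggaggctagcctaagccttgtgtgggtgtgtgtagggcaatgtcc
MSI1 intron 6, chr12:120361780-120361980, minus strand: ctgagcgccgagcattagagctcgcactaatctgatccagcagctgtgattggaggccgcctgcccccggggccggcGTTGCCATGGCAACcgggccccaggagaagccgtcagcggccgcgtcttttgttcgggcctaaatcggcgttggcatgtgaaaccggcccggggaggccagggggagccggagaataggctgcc
CDH2 beyond the gene end, chr18:27922242-27922442, minus strand: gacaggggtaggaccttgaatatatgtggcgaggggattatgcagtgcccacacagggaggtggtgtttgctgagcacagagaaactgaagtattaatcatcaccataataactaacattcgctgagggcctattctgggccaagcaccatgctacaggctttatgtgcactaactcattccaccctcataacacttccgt
FABP7 promoter, chr6:122779437-122779637, plus strand: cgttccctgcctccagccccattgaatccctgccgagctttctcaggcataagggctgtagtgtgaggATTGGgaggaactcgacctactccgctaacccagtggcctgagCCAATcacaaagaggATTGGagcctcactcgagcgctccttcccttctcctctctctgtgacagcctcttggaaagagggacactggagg

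The NES match to the SOX motif was centred 13 bases before the summit and the RBPJ match 66 bases before it. In MSI1 the X-box core was found around the dKO summit on both strands in overlapping positions, centred 14 and 20 bases before that summit. The window around the BAF53B summit of the same region, 7423 bp from the start, held a SOX match and no X-box match. The FABP7 promoter held 3 CCAAT boxes. Such a match describes the letters and is not evidence of binding.

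The height of a peak is its pileup, the number of ATAC-seq fragments stacked at its summit. The depth of a list was taken from its genome background, 6.33 fragments for WT, 6.81 for dKO and 6.78 for dKO + BAF53B, and a depth-scaled pileup is the pileup over that background. The lists held 7880, 25439 and 16948 peaks in the same order, and every peak had a −log10 q of at least 5, q being the adjusted p-value of the authors' peak caller for the summit against its local background. An uncalled region has no measured value, but at the genome background any summit of 25 fragments in WT, 25 in dKO or 26 in dKO + BAF53B would have been called, and more were needed where the local background was higher. The pileup an uncalled list would have needed is given below at the highest local background of the lists that called the region, scaled for depth. The genotype labels could not be tested with these lists, since the bounds of the deletions are not used here. The list labelled WT was the shortest at a nearly equal depth, had the fewest promoter peaks at the progenitor genes described below and held AP-1 letters in 5.55% of its peaks, against 3.54% in the list labelled dKO. The paper describes less accessible chromatin in dKO than in WT NPCs at SOX2, SOX1 and NES, and AP-1 motifs in regions that opened in dKO. In these lists, promoter peaks at SOX1 and SOX2 were called in dKO and not in WT, while the NES intron 2 peak was called in WT and not in dKO. Whether the lists carry the right labels or were called with the same options was not tested, and every value of dKO over WT rests on the labels as given.

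A promoter peak, one that overlaps the window of 3 kb on each side of the TSS, was called at 1 of the 10 marker genes in WT NPCs, at 5 in dKO NPCs and at 4 in dKO + BAF53B NPCs. The WT list had it at VIM. To this the dKO list added FABP7, PTPRZ1, CDH2 and MSI1, and the BAF53B list FABP7, PTPRZ1 and CDH2. Among all protein-coding genes the shares were 28.2% for WT, 56.4% for dKO and 45.0% for dKO + BAF53B, so the markers' shares in dKO and dKO + BAF53B were near those of any gene and the WT share was lower. The dKO list thus had 4 promoters that WT lacked, and such a change was seen at 28.6% of genes. These calls were weak: when the longer lists were shortened to their 7880 most significant peaks, promoter peaks were called at 1, 0 and 2 of the markers in WT, dKO and dKO + BAF53B, so the order of the lists was not kept. With the start of every annotated transcript in place of the 5′ end of the gene, the counts were 2 in WT, 6 in dKO and 6 in dKO + BAF53B, against 31.6%, 62.8% and 50.5% of genes, because SLC1A3 and, in dKO + BAF53B, MSI1 have a peak at an internal start. NES, PROM1, INSM1 and HOPX had no peak at any annotated start in any list.

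Over the whole loci, 10 peaks were called in WT, 33 in dKO and 30 in dKO + BAF53B. At least 1 peak was present at 5 of the 10 genes in WT, at 9 in dKO and at 9 in dKO + BAF53B, against 58.7%, 85.3% and 77.2% of all protein-coding genes. A marker locus held 1.0, 3.3 and 3.0 peaks on average in the 3 lists, and the locus of any protein-coding gene 1.05, 3.0 and 1.99. At equal list length the loci held 10, 12 and 11 peaks, so the gap to WT depended on the longer lists. In the BAF53B list CDH2 had 7 of the 30 peaks and MSI1 had 8. The map of called peaks by distance from the gene start shows where these lie.

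**Figure D1:**
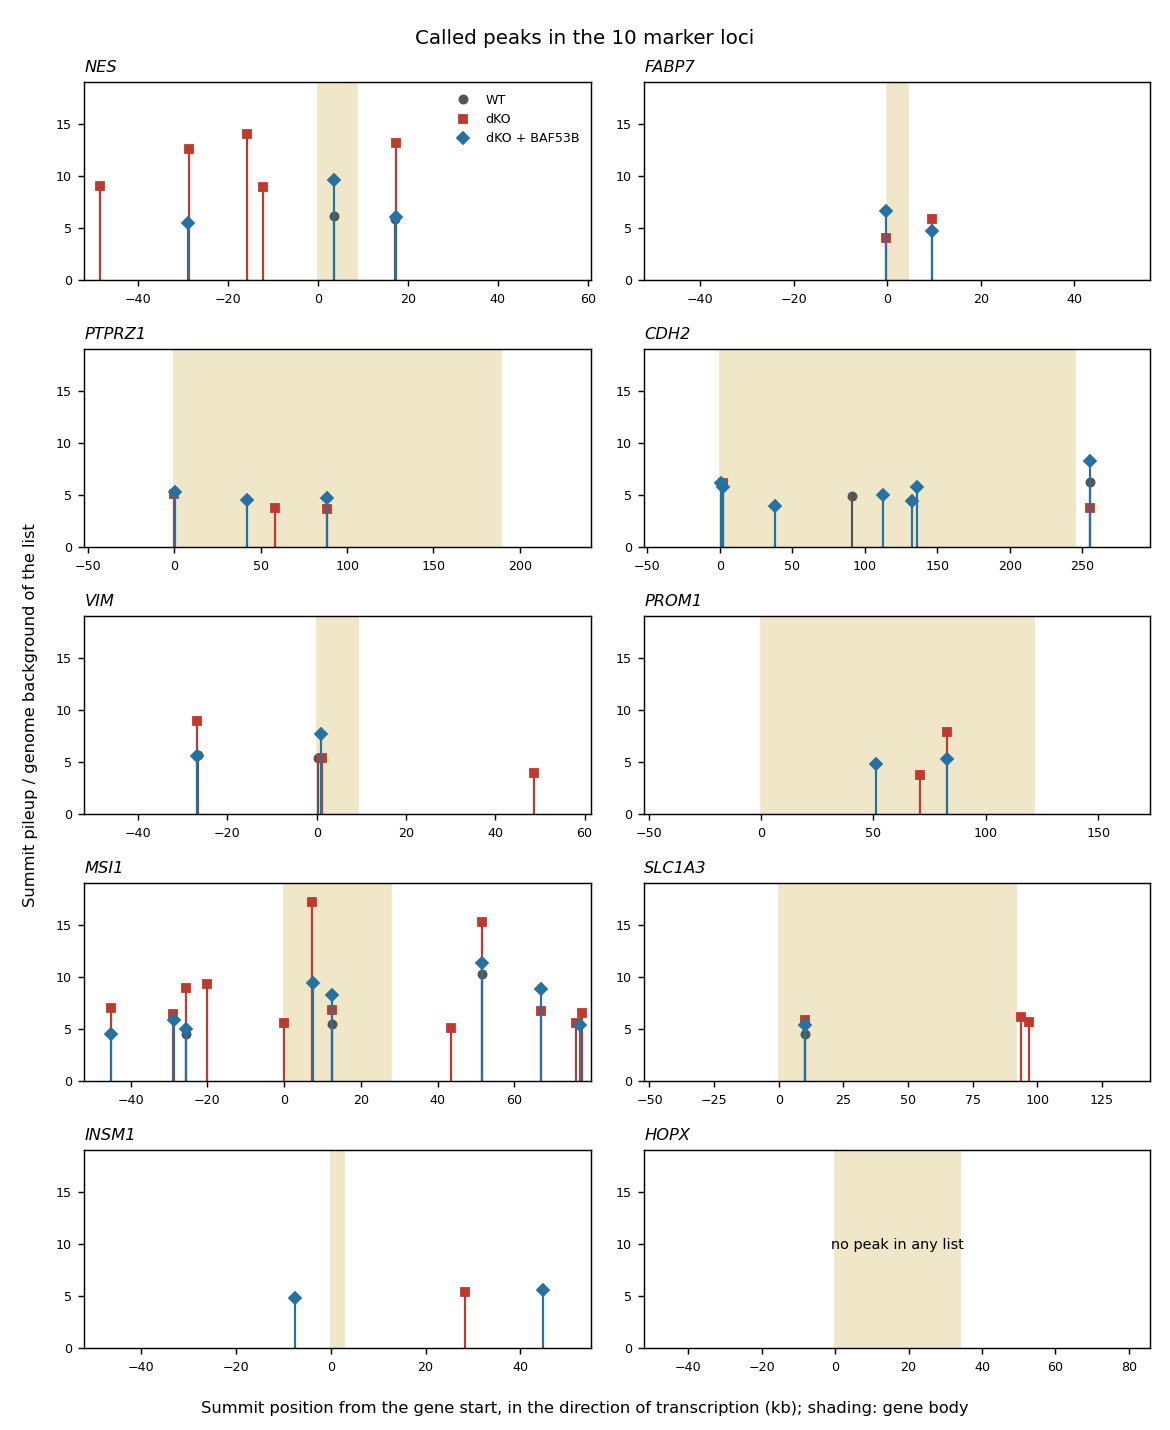
Called peaks in the 10 marker loci, with the distance of the summit from the gene start in kb on the x axis, the depth-scaled pileup on the y axis and the gene body shaded. Each stem is 1 peak of the WT (grey circles), dKO (red squares) or dKO + BAF53B (blue diamonds) list, the MSI1 peak of 117 fragments in dKO is the tallest, and HOPX has no peak.

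The peaks were of ordinary height for their lists. The median pileup was 35.5 fragments in WT, 42.0 in dKO and 37.5 in dKO + BAF53B in the marker loci, and 36.0, 41.0 and 38.0 over all peaks. In WT, 1 marker peak lay in a promoter, 4 in gene bodies and 5 in the flanks. In dKO the split was 5, 7 and 21, and in dKO + BAF53B it was 5, 12 and 13. Of the 21 dKO flank peaks 6 lay in promoter windows of neighbouring protein-coding genes. Starts of non-coding genes were left out of that count, though further flank summits lay close to them, as at NES and MSI1 below. A flank peak is therefore not taken as an element of its marker gene. Of the 12 gene body peaks in dKO + BAF53B 4 were in CDH2.

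The intermediate filament genes NES and VIM differed in where the signal lay. Nestin, the filament protein of NES (ENSG00000132688.11, hg38 chr1:156668763-156677407, minus strand), is the classical marker of neural stem cells, and its second intron is known as the seat of its neural enhancer. A peak was called there in WT at chr1:156673651-156674081 with 39 fragments and in dKO + BAF53B at chr1:156673415-156674281 with 65 fragments, and none was called in dKO. The BAF53B summit was higher than the WT summit by 0.64 on the log2 scale of depth-scaled pileup (95% interval 0.04 to 1.25, counting error of these 2 libraries). A dKO summit would have needed 40 fragments, or 46 at the background of the nearest dKO peak, 13.7 kb away. The dKO value therefore lay below the 65 fragments seen with BAF53B. After scaling for depth, the WT summit of 39 fragments lay just above the first of these bounds and below the second. Whether WT and dKO differed here could therefore not be told. This was the 1 region of 44 called in WT and dKO + BAF53B and not in dKO, a pattern held by 1.38% of all regions, and no marker region was called in WT and dKO alone, against 1.34%.

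Around NES the flank peaks were highest in dKO or called there alone. Each dKO summit in the flanks lay within 3 kb of the start of another gene, coding or non-coding. At 17.2 kb from the start, beyond the end of the gene, the pileup was 37 fragments in WT, 90 in dKO and 41 in dKO + BAF53B. The dKO summit stood above both others, by 1.18 over WT (0.61 to 1.77), and BAF53B over dKO was −1.13 (−1.70 to −0.58). Upstream, dKO had peaks of its own 12.3 kb before the start, with 61 fragments and a −log10 q of 10.1, and 15.8 kb before it, with 96 fragments and a −log10 q of 28.6. A call would have needed 49 fragments in WT and 50 in dKO + BAF53B at the first, and 50 and 52 at the second. A further dKO peak lay 48.6 kb upstream, with 62 fragments and a −log10 q of 16.8, in a window shared by the promoters of other genes. There 40 fragments would have been needed in either other list. The dKO peak of 86 fragments 28.8 kb upstream lay in the promoter window of CRABP2, a carrier of retinoic acid named here after its value was seen. That peak had 37 fragments in dKO + BAF53B (BAF53B over dKO log2 −1.21, −1.81 to −0.64). It was not called in WT, where 52 fragments would have been needed. The NES locus thus had 5 dKO peaks, all outside the gene, while the peak inside the gene was absent from that list.

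Vimentin, the filament protein of VIM (ENSG00000026025.16, chr10:17228241-17237593, plus strand), is made in radial glia and also in mesenchymal cells. Its promoter peak had 34 fragments in WT, 37 in dKO and 52 in dKO + BAF53B. The WT summit lay 377 bp and the dKO summit 1199 bp into the gene, and these 2 peaks did not overlap, but the BAF53B peak, with its summit at 1000 bp, spanned both. BAF53B stood above WT by 0.51 (−0.14 to 1.18) and above dKO by 0.50 (−0.14 to 1.15), and both intervals include 0. The flank peak 26.7 kb upstream, in the promoter window of a neighbouring gene, had 36, 61 and 38 fragments in the same order and so was highest in dKO, and a peak 48.7 kb downstream was called in dKO alone with 27 fragments.

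CDH2 and PROM1 encode surface proteins. N-cadherin, from CDH2 (ENSG00000170558.10, chr18:27932879-28177946, minus strand), holds neuroepithelial cells together at their apical junctions. Its locus had 2 peaks in WT, 2 in dKO and 7 in dKO + BAF53B. A gain of 5 or more peaks from dKO to dKO + BAF53B was found at 5 of the 20033 genes, CDH2 included, a count made after its value was seen and not adjusted for its long locus. The element 10.5 kb beyond the gene end, shown above, had 40 fragments in WT, 26 in dKO and 56 in dKO + BAF53B. Its summits lay 791 to 974 bp from the start of a long non-coding RNA gene, ENSG00000227279. The strongest summit was 255.6 kb from the CDH2 start. Which gene the element acts on was not tested. This element was the 1 shared marker peak that was lower in dKO than in WT, by −0.73 (−1.50 to 0.02), an interval that includes 0. A value this low or lower was held by 0.144% of the 6255 shared peaks. That share leaves out WT peaks with no dKO call. The 26 fragments lay next to the dKO calling floor of 25, so a much lower ratio from this WT height could not have been seen. BAF53B stood above dKO by 1.11 (0.42 to 1.84), at percentile 99.98 of the 11275 peaks shared by those 2 lists. Both extremes rest on the same dKO count of 26 fragments.

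Within the CDH2 gene, a peak in intron 1, 2.46 kb from the start of the gene record, had 42 fragments in dKO and 39 in dKO + BAF53B, and a second promoter peak 606 bp into the gene record was called in dKO + BAF53B alone with 42 fragments. Intron 2 held 4 peaks of the BAF53B list alone, with 39, 30, 34 and 27 fragments, and the 1 marker region called in WT alone, with 31. All 5 were weak: a dKO summit would have needed 33, 30, 28 and 27 fragments at the first 4 and 29 at the WT one. Absence from the other lists thus bounds these differences only loosely.

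Prominin-1, from PROM1 (ENSG00000007062.12, chr4:15963076-16084378, minus strand), is the CD133 protein of membrane protrusions and is used to sort neural stem cells. It had no WT peak and no promoter peak in any list. Intron 13 held the strongest PROM1 peak, with 54 fragments in dKO and 36 in dKO + BAF53B (log2 −0.58, −1.23 to 0.06). A WT summit of 28 fragments would have been called there at the depth-scaled background, under the dKO value. Single-list peaks of 26 fragments in intron 10 in dKO and 33 over exon 5 in dKO + BAF53B completed the locus.

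PTPRZ1, FABP7 and SLC1A3 serve signalling and metabolism. PTPRZ1 (ENSG00000106278.12, chr7:121873089-122062036, plus strand), a receptor tyrosine phosphatase rich in outer radial glia, had no WT peak. Its promoter peak had 35 fragments in dKO and 36 in dKO + BAF53B, which did not differ beyond counting error (log2 0.05, −0.66 to 0.76). A WT promoter summit would have needed 33 fragments, which after scaling for depth lies between the dKO and BAF53B values. The missing WT call therefore shows no clear difference from either. In the introns, dKO had a peak of 26 fragments alone and another of 25 that had 32 in dKO + BAF53B, and dKO + BAF53B had one of 31 alone in intron 1.

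FABP7 (ENSG00000164434.12, chr6:122779716-122784074, plus strand), the brain lipid-binding protein of radial glia, had a promoter peak just before the start with 28 fragments in dKO and 45 in dKO + BAF53B, and none in WT. The BAF53B summit was higher by 0.69 (−0.02 to 1.43), at percentile 99.2 of peaks shared by those lists, but the counting interval reaches 0. A WT summit would have needed 30 fragments, more than the 28 of dKO, so WT lay under the BAF53B value and could not be told apart from dKO. The flank peak at 9.62 kb, in the promoter window of a neighbour, had 40 fragments in dKO and 32 in dKO + BAF53B.

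SLC1A3 (ENSG00000079215.15, chr5:36596588-36688334, plus strand), the glial glutamate transporter GLAST, has its canonical start 10018 bp inside the gene record. A peak at that start was called in all 3 lists, with 29 fragments in WT, 40 in dKO and 37 in dKO + BAF53B. These differed by less than counting error, with dKO over WT at 0.36 (−0.37 to 1.1) and BAF53B over dKO at −0.10 (−0.79 to 0.58). Beyond the end of the gene, dKO alone had peaks of 42 and 39 fragments.

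The regulators were MSI1, INSM1 and HOPX. Musashi-1, from MSI1 (ENSG00000135097.7, chr12:120341330-120369164, minus strand), is an RNA-binding protein of neural stem cells, and its locus held 12 of the 44 regions. It had 3 peaks in WT, 12 in dKO and 8 in dKO + BAF53B. A gain of 9 or more peaks from WT to dKO was found at 0.729% of protein-coding genes, a count made for all 10 markers and given here after its value was seen. The MSI1 gain includes peaks at the starts of other genes. Their dKO summits lay 358 bp from RNU4-2, 147 bp from RNU4-1, 4 bp from SIRT4, 2095 bp from PLA2G1B and 235 bp from the non-coding RNA gene ENSG00000256695. The strongest marker peak, in intron 6 at 7.28 kb and 372 bp from an alternative start, had 117 fragments in dKO and 64 in dKO + BAF53B and was not called in WT. BAF53B over dKO was −0.86 (−1.33 to −0.41), and a WT summit of 44 fragments would have been called, under both values. At the annotated start, a peak of 38 fragments was called in dKO alone, where the needed pileup was 38 in WT and 39 in dKO + BAF53B, so its absence there bounds no difference.

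A second MSI1 element, in intron 9, was called in all 3 lists with 35 fragments in WT, 47 in dKO and 56 in dKO + BAF53B. Here BAF53B was highest, though neither dKO over WT (0.32, −0.34 to 0.99) nor BAF53B over dKO (0.26, −0.33 to 0.85) was clear of counting error. The flank 51.5 kb downstream of the start had 65, 104 and 77 fragments, and that 25.7 kb upstream 29, 61 and 34. Both were highest in dKO, with dKO over WT at 0.57 (0.11 to 1.04) and 0.97 (0.31 to 1.66). A dKO peak of 64 fragments 20.1 kb upstream, with a −log10 q of 24.5, had no partner in either other list. The promoter peak of SIRT4, a neighbour named after its value was seen, had 46 fragments in dKO and 60 in dKO + BAF53B.

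INSM1 (ENSG00000173404.5, chr20:20368104-20370949, plus strand), a zinc finger factor of basal progenitors encoded by 1 exon, had no peak at the gene in any list and no peak in WT. Distal peaks were called in dKO alone 28.3 kb after the start, with 37 fragments, and in dKO + BAF53B alone 7.6 kb before it, with 33, and 44.8 kb after it, with 38. HOPX (ENSG00000171476.23, chr4:56647989-56681877, minus strand), a homeodomain protein of outer radial glia, had no peak in any list over 134 kb, which held for 12.5% of protein-coding genes.

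**Figure D2:**
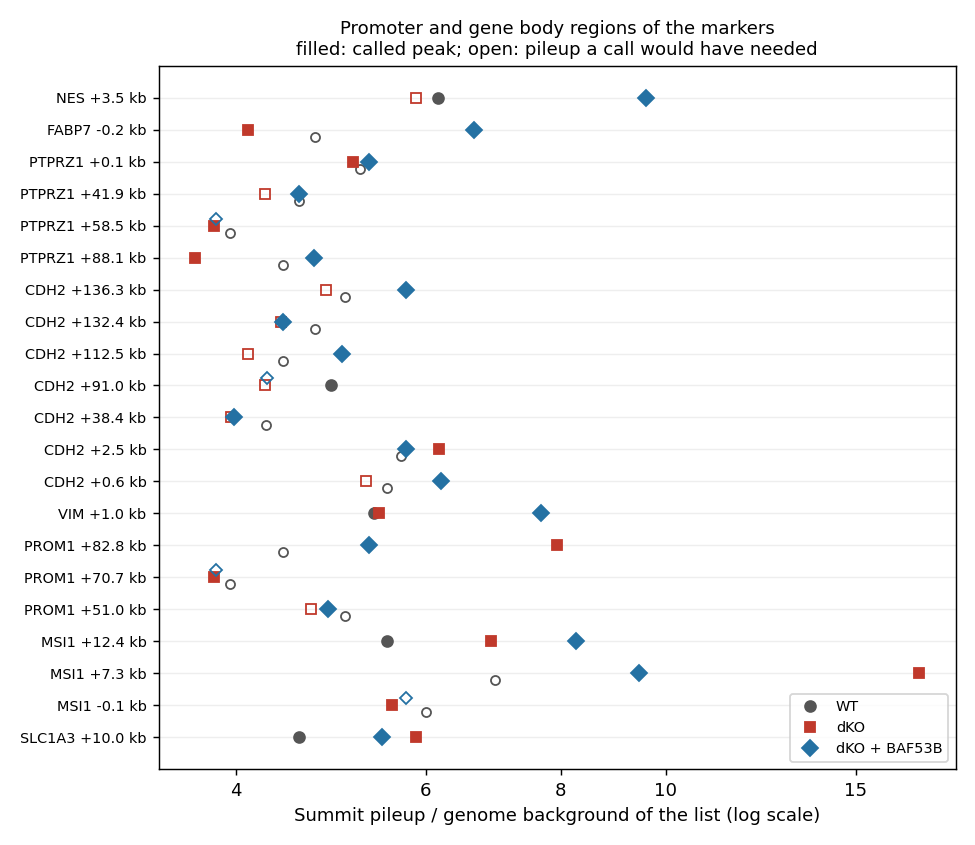
Depth-scaled pileup (x axis, log scale) of the 21 promoter and gene body regions of the markers (y axis: gene and distance of the summit from the gene start in kb). Filled symbols are called peaks and open symbols the pileup an uncalled list would have needed, and the dKO symbol of MSI1 at +7.3 kb lies farthest beyond an open symbol, followed by the dKO symbol of PROM1 at +82.8 kb.

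Between lists, 7 of the 10 WT marker peaks overlapped a dKO peak, against 79.4% of all WT peaks, and 9 of 10 overlapped a BAF53B peak, against 79.5%. Of the 33 dKO marker peaks, 7 overlapped a WT peak (21.2%, against 24.4% of all dKO peaks) and 20 a BAF53B peak (60.6%, against 44.3%). Of the 30 BAF53B marker peaks, 20 overlapped a dKO peak, or 66.7%, against 66.7% of all. Relative to all regions, the markers had more regions shared by dKO and dKO + BAF53B and fewer of dKO alone. These are small counts, and regions of 1 locus are not independent. MSI1 alone held 12 of the 44 regions, some of the shared regions among them. At equal list length 5 BAF53B marker peaks had a dKO partner. In counts, 8 of the 44 regions were called in all 3 lists (17.9% of all regions), 12 in dKO and dKO + BAF53B (16.8%), 13 in dKO alone (42.8%), 9 in dKO + BAF53B alone (16.2%) and 1 in WT alone (3.63%). Of the 13 in dKO alone 10 were in flanks, and of the 9 in dKO + BAF53B alone 6 were in gene bodies, 4 of these in CDH2.

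**Figure D3:**
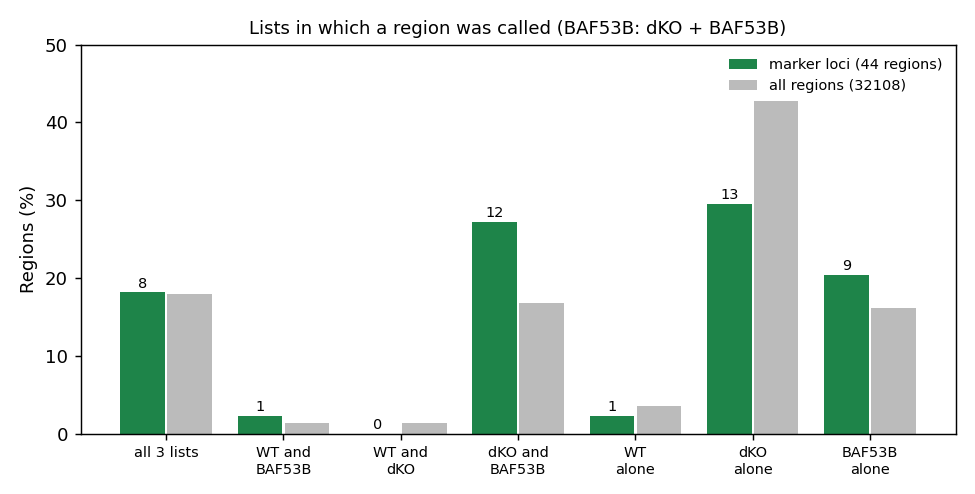
Share of regions (y axis, %) by the lists in which they were called (x axis), for the 44 regions of the marker loci (green, counts above the bars) and all 32108 regions (grey). The markers' share is 29.5% against 42.8% for dKO alone and 27.3% against 16.8% for dKO and dKO + BAF53B together.

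For peaks called in both lists of a pair, the heights could be compared directly, which leaves out every region that 1 list lacked. The 3 comparisons share lists and are not independent. The dKO summit was higher than the WT summit at 6 of 7 shared marker peaks, with a median of 0.57 on the log2 scale, and over all 6255 shared peaks the median was 0.71. A difference of at least 1.5-fold was reached upward at 3 of the 7 (NES at 17.2 kb, VIM upstream and MSI1 25.7 kb upstream), against 59.8% of all, and downward at the CDH2 element. BAF53B was lower than dKO at 13 of 20, with a median of −0.20 against −0.36 over all 11275, and lower by at least 1.5-fold at 6 of 20, against 30.0%. Against WT it was higher at 8 of 9, with a median of 0.25 against 0.24, and by at least 1.5-fold at 1 of 9, NES intron 2, against 14.9%.

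The direction from dKO to dKO + BAF53B differed between peaks, with both directions in flanks and in promoters or gene bodies. The 6 peaks lower by at least 1.5-fold were 2 flank peaks of NES, the upstream flank peak of VIM, MSI1 intron 6 and the MSI1 peaks 25.7 and 45.0 kb upstream. The interval of the MSI1 peak 45.0 kb upstream included 0 (−0.62, −1.32 to 0.06), and the intervals of the others excluded it. The 7 peaks with higher values in dKO + BAF53B were the CDH2 element, the FABP7, VIM and PTPRZ1 promoters, MSI1 intron 9, PTPRZ1 intron 2 and the MSI1 flank peak at SIRT4. Of these the CDH2 interval alone excluded 0. Lower values within genes included PROM1 intron 13 (−0.58), the SLC1A3 canonical start (−0.10) and CDH2 intron 1 (−0.10).

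**Figure D4:**
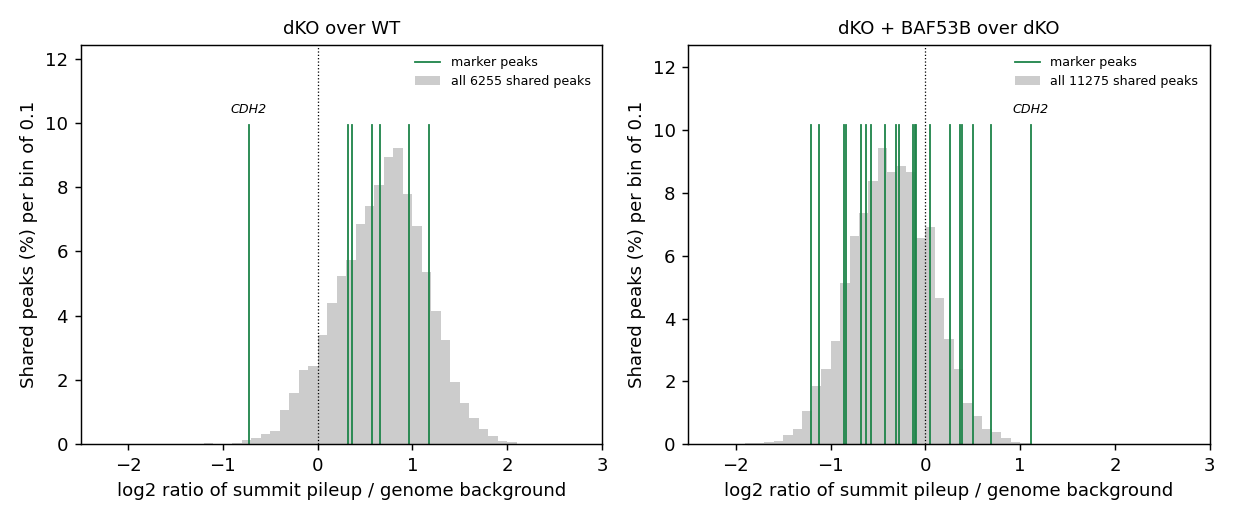
Log2 ratio of depth-scaled pileup (x axis) of dKO over WT (left) and dKO + BAF53B over dKO (right), as the percentage of all shared peaks per bin of 0.1 (grey, y axis) with each shared marker peak as a green line. The CDH2 element lies at the low edge on the left, at −0.73, and at the high edge on the right, at 1.11.

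The letters around the summits were searched on both strands within 100 bp for the SOX, RBPJ, CCAAT and X-box letters given above (the X-box also as GTTACCAT or GTTGCTAT), the POU octamer ATTTGCAT, AP-1 (TGACTCA or TGAGTCA), the E-box CAGCTG, the GC box GGGCGGG and the full NFI site. A SOX match was present in 1 of 10 WT marker peaks, in 6 of 33 dKO peaks (18.2%) and in 5 of 30 BAF53B peaks (16.7%), against 6.08%, 7.05% and 7.29% of all peaks. The dKO matches lay upstream of NES, in PTPRZ1 intron 2, beyond SLC1A3 and in 3 MSI1 flanks, and those of the WT and BAF53B lists included NES intron 2. AP-1 letters were found in 3 of the 10 WT marker peaks, at the VIM promoter, MSI1 intron 9 and the CDH2 intron 2 peak of WT alone, against 5.55% of WT peaks, in 1 of 33 in dKO, against 3.54%, and in 1 of 30 in dKO + BAF53B, against 7.84%, both MSI1 intron 9. The GC box was less common than over all peaks in dKO (15.2% against 26.3%) and in dKO + BAF53B (16.7% against 27.9%), the NFI site had no match, and the median GC content was 57.7%, 60.2% and 56.7% in the 3 lists against 61.7%, 61.2% and 59.7%. The X-box core matched in 0 of 10 WT, 2 of 33 dKO and 1 of 30 BAF53B marker peaks, against 3.24%, 2.38% and 3.02% of all peaks. For the RBPJ letters the counts were 1, 2 and 2, against 3.92%, 4.67% and 4.30%. The CCAAT box matched in 30.0%, 27.3% and 30.0% of marker peaks, against 39.0%, 26.5% and 31.5%. These counts are small, and with 50 bp on each side the SOX matches were 1, 3 and 3 and those of AP-1 were 1, 1 and 1 in the 3 lists.

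Other genes of the same cell type gave a further view. Of 20 other radial glia and progenitor genes, a promoter peak was present at 3 in WT (HES1, ITGB8 and SOX9), 9 in dKO and 10 in dKO + BAF53B. These shares of 15%, 45% and 50% stand beside 28.2%, 56.4% and 45.0% of all protein-coding genes, so the higher count in dKO than in WT is not particular to them. The Notch target HES1 had 37, 113 and 67 fragments in WT, dKO and dKO + BAF53B. The Notch receptor gene NOTCH1 had 109 in dKO and 40 in dKO + BAF53B. The progenitor factor SOX1 had 46 and 67 in those lists, SOX2 had 70 in dKO alone, and PAX6 had no peak within 3 kb of its gene start in any list. That window leaves out the other transcript starts of a gene. With every annotated start, 5 of the 20 genes had a peak in WT, 12 in dKO and 11 in dKO + BAF53B. The shares of all protein-coding genes were then 31.6%, 62.8% and 50.5%. Among 19 neuronal, pluripotent, neural crest or mesenchymal and epithelial genes, promoter peaks numbered 3 in WT (15.8%), 11 in dKO (57.9%) and 6 in dKO + BAF53B (31.6%), among them the epithelial gene EPCAM with 31, 96 and 44 fragments. The dKO share was near that of any gene and the other shares were lower. The part of other cell types in the marker genes' values was not tested, and changes in cell composition and in accessibility per cell cannot be told apart in these bulk samples.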

How the data were processed

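ATAC-seq was performed by the authors on 2 replicates of WT, dKO and dKO + BAF53B NPCs. Per the study's methods and notes, the authors trimmed reads with cutadapt 1.13, aligned them to hg38 with Bowtie2 2.2.5, removed duplicates with SAMtools 1.3.1 and Picard 1.90 and called peaks with MACS2. The MACS2 version and options and any Tn5 shift are not given in the sources used here. Each deposited list pools both replicates. The deposited fold of a peak is the authors' ratio of pileup to local background, each with 1 added. The −log10 p-value and −log10 q-value deposited beside it test that pileup, and the deposited summit position is an offset within the peak.

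The whole pileup was solved from the fold and −log10 p and recovered for 100% of peaks within 0.001, so that the 95% exact conditional binomial intervals of ratios cover counting error only and not library preparation. Ratios were scaled by genome background. Genes were taken from GENCODE version 44, with overlaps of at least 1 bp. Classes were assigned in the order promoter, gene body, flank. All 10 genes are described, with their strongest promoter and gene body peaks and every single-list peak with a −log10 q of at least 10; neighbours and further peaks were named after their values were seen. The genes, lists and tests were chosen with earlier results of these data known. The work was done in Python 3.11.15 with scipy 1.17.1, pandas 2.3.3, numpy 2.4.6 and matplotlib 3.10.9. The steps were tested on simulated data.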

Additional observations from a re-analysis of the deposited data

How the results depend on the processing

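The results rest on 1 pooled list per group. No paired analysis was possible because the 2 replicates of a group were merged into 1 list whose columns carry no replicate number, and leaving out each replicate was not run for the same reason. In WT, dKO and dKO + BAF53B, promoter peaks were present at 0, 0 and 2 marker genes with a −log10 q of at least 10, and at equal list length, where each list kept its strongest peaks up to the length of the WT list, at 1, 0 and 2, so the excess of dKO over WT promoters was lost at the stricter q and turned at equal length. All transcript starts gave 2 in WT. Peaks in the loci numbered 2, 16 and 9 at the stricter q, 12 in dKO and 11 in dKO + BAF53B at equal length, and 6 in WT, 16 in dKO and 20 in dKO + BAF53B with flanks of 10 kb, where the order of dKO and dKO + BAF53B turned. WT and dKO marker peaks then shared 1 at the stricter q, 4 at equal length and 3 with the shorter flanks, counted from either list. BAF53B peaks with a dKO partner were 5, 5 and 11, and WT peaks with a BAF53B partner were 2 at the stricter q and 5 with the shorter flanks.

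The median log2 ratio of BAF53B over dKO was −0.43 at the stricter q, −0.58 at equal length, −0.37 with a reciprocal overlap of 50% and −0.35 with the authors' −log10 p in place of the pileup. That of dKO over WT was 0.81 at equal length and 1.09 with −log10 p. BAF53B over WT was 0.515 with flanks of 10 kb and 0.49 with −log10 p. No median ratio changed sign under these alternatives, and the cause of the changes was not tested beyond the fewer peaks that the stricter q, equal length and shorter flanks leave. A promoter window of 1 kb, the summit inside the window, a summit of either peak inside its partner and the authors' fold kept every count within 1.5 times and the sign of every median. Leaving out promoter peaks of protein-coding neighbours did the same, with peaks at non-coding starts kept. A summit near 30 fragments lies at the edge of calling, so peaks of that height in a single list show little about the others.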
